A study of Hippophae rhamnoides with 3 samples.

Results

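The genes described here were the MYB, bHLH, zinc finger, bZIP, homeobox, MADS, GRAS, CONSTANS-like and other transcription factors that changed in leaves of seabuckthorn (Hippophae rhamnoides) under low temperature. Plantlets 30 days old, raised from seed at 28°C, were kept for 6 hr at -10°C (freeze stress, FS), at 4°C (cold stress, CS) or at 28°C (control, CON), and leaf RNA was profiled by DeepSAGE with 1 library per condition. The number of plants behind a library is not stated in those sources that were used. DeepSAGE counts tags of 21 bases, which start at a CATG site near the 3' end of a cDNA and name the gene they match. The deposited lists hold only those genes that the study called different between a pair of libraries, 7713 genes over the 3 pairs, and a gene in a single list has counts for that pair alone. Members were taken by words in the description of the best hit in another species, with AP2/ERF, WRKY, NAC, heat shock (by the word heat), RING, auxin and ubiquitin descriptions left out. The words gave 96 genes. In 2 of them, both retroelement polyproteins, the letters of GRAS stood only inside the word integrase, and they were set aside, which left 94 of 7713 genes.

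The 94 genes comprised 24 zinc finger, 14 MYB, 9 homeobox, 8 GRAS, 5 bHLH, 5 bZIP, 4 CONSTANS-like and 2 MADS genes and 23 with another or no family word. Names rest on best hits, of which 31 were in Ricinus communis and 30 in Malus x domestica, and 16 had an E-value above 1e-20. The label of transcription factor was set beside the deposited GO terms, which 64 of the 94 members and 3252 of all 7713 listed genes had. Regulation of gene expression was named for 24 members (25.5%, all listed genes 2.0%). Transcription factor activity was named for 11 (11.7%, all 1.3%) and DNA binding for 10 (10.6%, all 0.8%). None had the term for response to cold, which 11 of all 7713 genes (0.1%) carried. The paper assigned GO terms with BLAST2GO, so they also rest on sequence hits and are no independent check. A few names are not those of a DNA-binding factor. Unigene51746 matched the site-2 protease, which in animals releases a membrane-bound transcription factor, and Unigene44165 matched a protein with F-box, FAR1 and SWIM zinc finger names.

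Transcription factors bind short DNA motifs in promoters and raise or lower the transcription of many genes at once. In Arabidopsis, the cold signal passes through ICE1, a bHLH protein, to the CBF/DREB genes, and MYB15 acts on the same genes as a repressor, while C2H2 zinc finger proteins of the ZAT group act in parallel. MYB and bHLH proteins together with a WD40 protein also switch on flavonoid genes, bZIP proteins of the ABF group act in abscisic acid responses, and GRAS proteins include the DELLA repressors of gibberellin signalling.

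The tags are the molecules that were counted, and those of the members with the largest changes among genes with 10 or more tags in the lower library, of members in all 3 lists and of some at 0 tags are shown here, since a gene's count is the sum of such tags. Each is written 5' to 3', and the capitals mark the CATG site cut by NlaIII. Unless a site number is given, the tag came from the CATG site nearest the 3' end. No genome was used here, so no chromosome position is given. The first tags belong to genes with large differences between FS and CON or CS.
Unigene54650, bZIP, site 1: CATGaaactatcaacactgtt
Unigene54650, bZIP, site 2: CATGggttcatgaaactatca
Unigene43614, CONSTANS-like: CATGtcgtttttggatgatag
Unigene58281, homeobox: CATGcatttggagcaaaacgc
Unigene56240, MYB60-like: CATGttcttggatataagaga
Unigene58364, R2R3 MYB: CATGcttctttgggtaataag
Unigene31442, R2R3 MYB: CATGtaattgactattaaatt
Unigene770, transcription factor-related: CATGaattctcacaattgctg
Unigene15814, MADS4: CATGtatgtatgaatccttta

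The next tags belong to genes with large differences between CS and CON or FS.
Unigene3063, myb-like: CATGgtgaaggttgctggcgt
Unigene54405, MYC1a: CATGaataaggtcagagtttt
Unigene45566, transcription factor: CATGaattagaactcttaatt
Unigene12199, zinc finger: CATGagttttatatgtattgt
Unigene69708, ZFP248: CATGatgagacaaagagcgag
Unigene28510, bZIP69: CATGttaaggaaggttctcat
Unigene22013, homeodomain: CATGaagagattcaatagctc
Unigene11928, transcription factor: CATGgggtgggtgttgattac
Unigene34809, C3H-like zinc finger: CATGgaaatcaacagtgatag
Unigene42172, SCARECROW-like, site 1: CATGtaaatgtgtttgttaga
Unigene42172, SCARECROW-like, site 2: CATGctgttttctgtagcttt

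The last tags are shown because an antisense tag, or a nearly equal tag of another gene, bears on how the gene's count is read. They are the sense and antisense tags of a GRAS and a homeodomain gene, an antisense tag of a zinc finger gene, and the tags of a pair of bHLH genes with the same best hit.
Unigene48446, GRAS, sense, site 8: CATGtctctccaccctttcct
Unigene48446, GRAS, antisense, site 8: CATGagctctttggcaagtgg
Unigene47625, homeodomain, sense: CATGttcttgaactgctcaaa
Unigene47625, homeodomain, antisense: CATGttcgaagctagttgttt
Unigene2701, C3H-like zinc finger, antisense, site 2: CATGgttttatatgctaatgg
Unigene6456, Upa20-like bHLH: CATGacaatgggtgtctattg
Unigene30697, Upa20-like bHLH: CATGacaatgggtgtctatta

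Across the listed genes, the transcription factors were mostly up regulated by either stress. In CS vs CON, 58 members were listed, and 42 of them (72.4%) were higher in CS, while 53.0% of all 3872 listed genes were higher there. The other 16 members were lower in CS, against 47.0% of all listed genes. In FS vs CON, 48 members were listed, with 38 (79.2%) higher in FS against 56.2% of all 4052 genes, and 10 lower in FS against 43.8% of all. Between the 2 stresses this excess was not seen. In FS vs CS, 23 of 41 members (56.1%) were higher in FS, against 55.3% of 3998 listed genes, and 18 were lower in FS, against 44.7%. All members have a named best hit, while 5264 of all 7713 listed genes do. With only best hits at an E-value of at most 1e-20 in both sets, 73.5% of members against 50.2% of genes were higher in CS vs CON. The shares were then 78.0% against 63.1% in FS vs CON, a smaller excess, and 54.5% against 62.7% in FS vs CS.

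Larger differences leaned the same way. In CS vs CON, 22 members were at least 4-fold higher in CS (37.9%, background 25.5%) and 6 at least 4-fold lower (10.3%, background 14.1%). In FS vs CON, 22 were at least 4-fold higher in FS (45.8%, background 27.3%) and 2 at least 4-fold lower (4.17%, background 9.06%). In FS vs CS, 11 were at least 4-fold higher in FS (26.8%, background 21.9%) and 8 at least 4-fold lower (19.5%, background 12.1%). The median log2 ratio of the members was 1.63 in CS vs CON, 1.63 in FS vs CON and 1.04 in FS vs CS, and that of all listed genes was 1.08, 1.18 and 1.12 in the same order. As every listed gene differs by at least 2-fold, such a median lies on the side that holds more genes and is no typical size. The CS and FS contrasts share the CON library, so their leaning is not independent, and with 1 library per condition no difference here had a replicate check and no p-value is given.

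**Figure D1:**
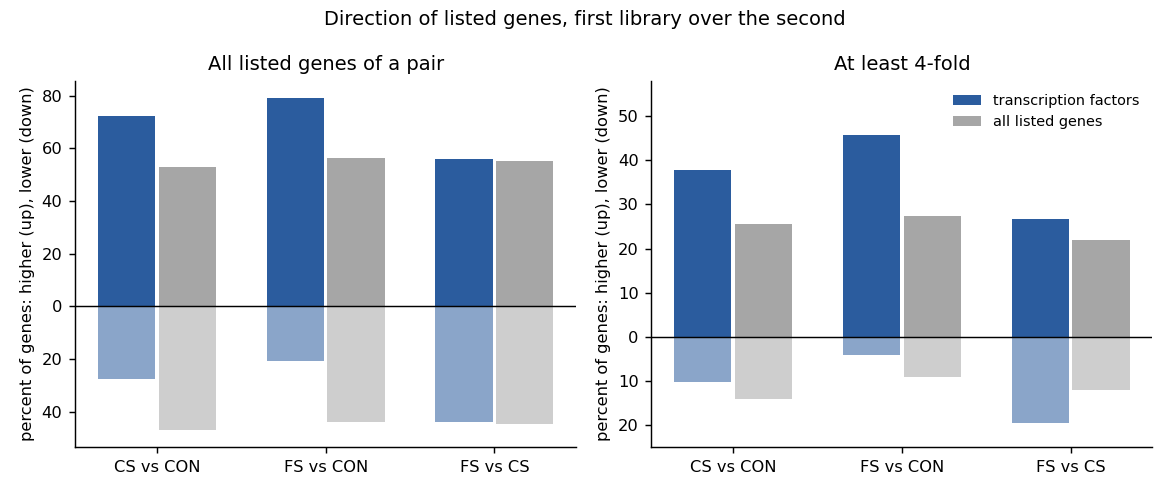
Percent of listed genes that were higher (bars above 0) or lower (bars below 0) in the first library of each pair, for the 94 transcription factors (blue) and all listed genes (grey), with every listed gene on the left and those at least 4-fold apart on the right. The blue bar stands above the grey one in CS vs CON (72.4% against 53.0%) and FS vs CON (79.2% against 56.2%), and level with it in FS vs CS (56.1% against 55.3%).

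Levels were low for most members. The median of the members' mean levels was 5.57 TPM (transcripts per 1000000 clean tags) in CS vs CON, 5.86 TPM in FS vs CON and 6.18 TPM in FS vs CS, near those of all listed genes (6.68, 6.49 and 6.67 TPM). The clean tags implied by the deposited counts were 11908617 in FS, 12010129 in CS and 11566376 in CON, so depth was nearly equal. Below, counts are tags per library, and log2 ratios are of TPM, each with an exact (Clopper-Pearson) 95% interval that covers counting error only, because tags amplified by PCR without molecular identifiers are not independent molecules. For a gene at 0 tags, 3 tags were set in its place. Such a fold rests on that setting, and the lower end of the interval, which lies below it, is given in log2. The lists hold leaf genes of photosynthesis, 25 by name, with mean levels of up to 1323 TPM. The 5 genes with oleosin or nodulin in the name reached 32.8 TPM, and such a name alone does not assign a gene to another organ. Fewer cells of a type and less RNA per cell cannot be told apart in such libraries.

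Counts in all 3 libraries were at hand for the 50 members in at least 2 lists. The highest library was FS for 17 of them, CS for 22 (44.0%) and CON for 11 (22.0%), where among all 3960 such genes CS was highest for 34.1% and CON for 29.6%. CON was the lowest library for 27 members (54.0%, all genes 38.9%) and FS for 6 (12.0%, all genes 28.1%). All 3 lists held 3 of the 94 members, Unigene3063 (MYB), Unigene34809 (zinc finger) and Unigene48446 (GRAS), and 249 of all 7713 genes, which is a like share.

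**Figure D2:**
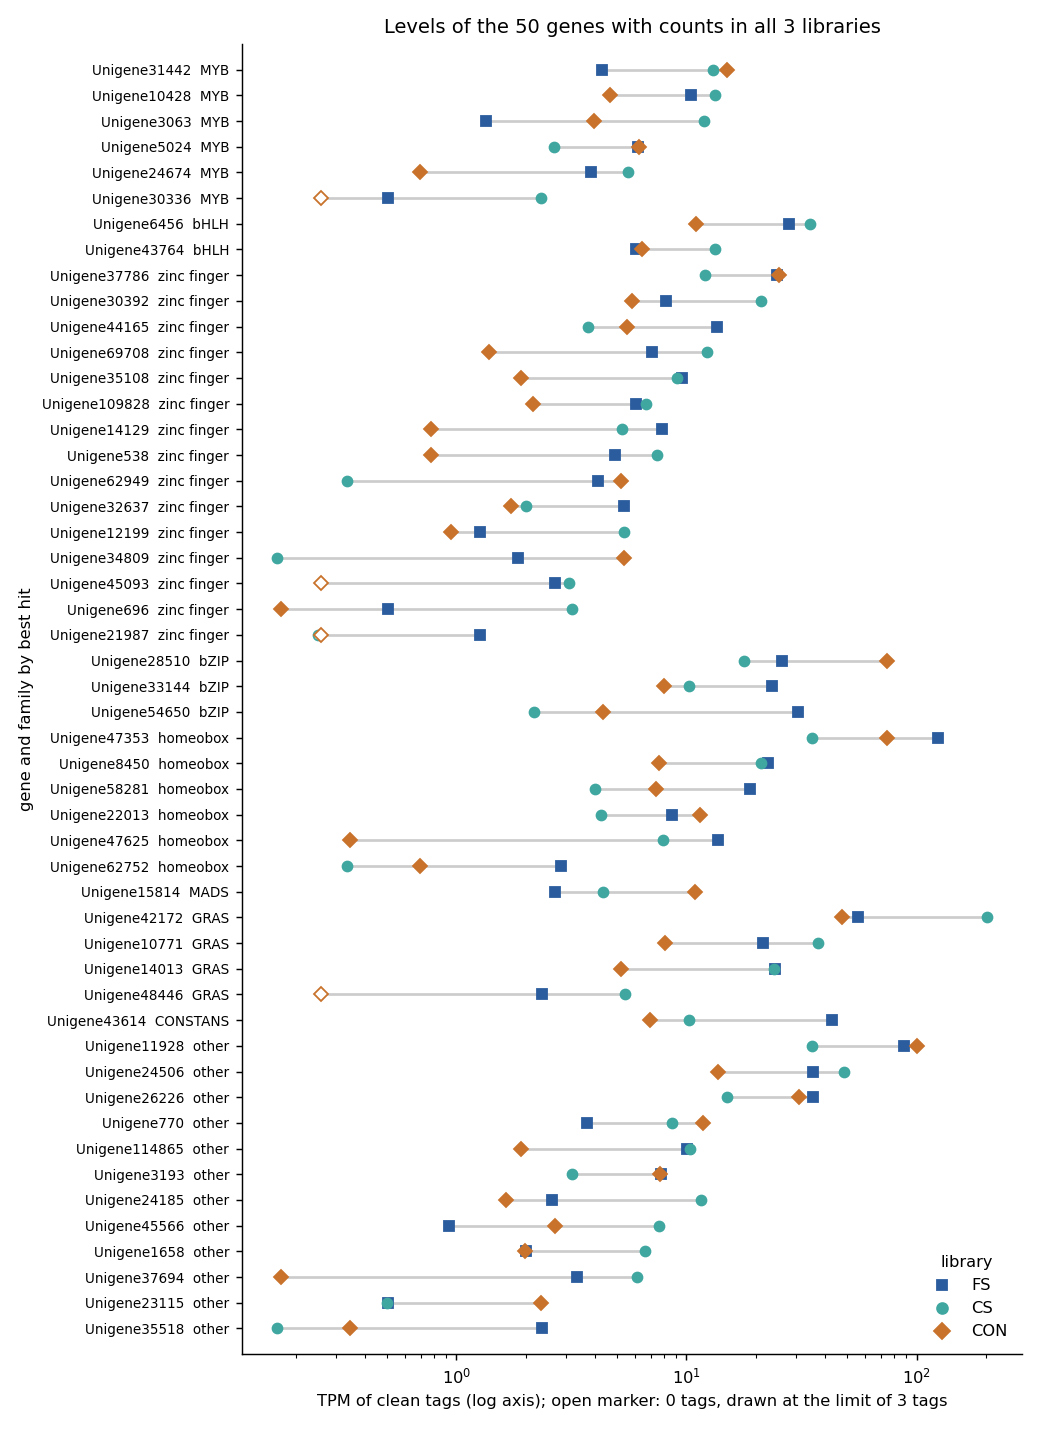
Level in TPM (log axis) of the 50 transcription factors with counts in all 3 libraries, 1 row per gene, with FS as squares, CS as circles and CON as diamonds, and open markers for 0 tags at the limit of 3 tags. The CON diamond lies at the left end of the row for 27 genes, and the points farthest right are the SCARECROW-like Unigene42172 in CS (202 TPM) and the homeodomain gene Unigene47353 in FS (124 TPM).

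Counts by family below stand beside all listed genes, of which 53.0% were higher in CS than in CON. The shares were 56.2% higher in FS than in CON and 55.3% higher in FS than in CS. Families hold few genes, and none was tested against these shares. The GRAS genes, which take part in hormone signalling, root patterning and stress responses, were higher in CS in all 5 of the 5 members listed for CS vs CON. In FS vs CON 5 of 6 were higher in FS, and both members listed for FS vs CS were lower in FS. The most abundant was Unigene42172, a SCARECROW-like gene, with 665 tags in FS, 2431 in CS and 551 in CON. CS stood above both other libraries, with a log2 ratio of 2.09 over CON (interval 1.95 to 2.22) and of -1.86 for FS over CS (-1.98 to -1.73). Its tag at site 1 had 479 tags in FS, 2123 in CS and 525 in CON, and its tag at site 2 had 169 in FS, 282 in CS and 22 in CON. So the first site was high in CS alone, while the second was high under both stresses (log2 2.90 for FS over CON and 3.63 for CS over CON).

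Unigene14013 had 288 tags in FS, 288 in CS and 60 in CON, which is a log2 ratio of 2.22 for FS over CON (1.82 to 2.65) and 2.21 for CS over CON (1.80 to 2.64). Unigene10771 had 256 tags in FS, 449 in CS and 93 in CON, with log2 ratios of 1.42 for FS over CON and 2.22 for CS over CON. Both GRAS genes were thus lowest in CON. Unigene48446 had 28 tags in FS, 65 in CS and 0 in CON. With 3 tags in CON it was 9.07-fold higher in FS (lower end log2 2.79) and 20.9-fold higher in CS (lower end log2 4.04). It was lower in FS than in CS by a log2 ratio of -1.20 (-1.90 to -0.54). The remaining SCARECROW-like genes were picked with their values in view: Unigene24405 had 31 tags in FS and 2 in CON (log2 3.91, 1.94 to 7.02), Unigene47095 had 30 tags in CS and 3 in CON (log2 3.27, 1.58 to 5.62), and Unigene46374 had 245 tags in FS and 85 in CON. The exception in direction was Unigene4723, with 109 tags in FS and 229 in CON (log2 -1.11, -1.46 to -0.78).

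Homeobox genes, whose products govern organ identity and, in the HD-Zip class, responses to light and water deficit, were higher in FS wherever they were listed for a pair with FS. All 6 members listed for FS vs CON and all 4 listed for FS vs CS were higher in FS, while CS vs CON held 3 higher and 2 lower in CS. The most abundant, Unigene47353, had 1476 tags in FS, 420 in CS and 857 in CON, with a log2 ratio of 1.83 for FS over CS (1.67 to 1.99) and -1.08 for CS over CON (-1.26 to -0.91). Unigene58281 had 226 tags in FS, 48 in CS and 85 in CON, a log2 ratio of 2.25 for FS over CS (1.79 to 2.73) and 1.37 for FS over CON (1.00 to 1.75). In both, FS was the highest library and CS the lowest. Unigene22013 was also lowest in CS, with 103 tags in FS, 51 in CS and 132 in CON.

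HAT22, an HD-Zip class II protein of Arabidopsis, was the best hit of Unigene8450, which was higher under both stresses with 270 tags in FS, 254 in CS and 88 in CON (log2 1.58 for FS over CON and 1.47 for CS over CON). Unigene27126 had 72 tags in CS and 22 in CON (log2 1.66, 0.95 to 2.42). The largest ratio of all members in FS vs CON was that of the homeodomain gene Unigene47625, which falls outside the naming rule by its low control count and was named after its values were seen. It had 164 tags in FS, 95 in CS and 4 in CON, or log2 5.32 for FS over CON (3.93 to 7.21) and 4.52 for CS over CON (3.11 to 6.42). Even the lower ends of these intervals, which cover counting error only, exceed 8-fold. The rest were scarce: the zinc finger homeodomain gene Unigene62752 had 34 tags in FS, 4 in CS and 8 in CON. Unigene25012 and Unigene25062 each had 16 tags in FS and 0 in CON, 5.18-fold higher in FS with 3 tags in CON (lower end log2 1.91).

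**Figure D3:**
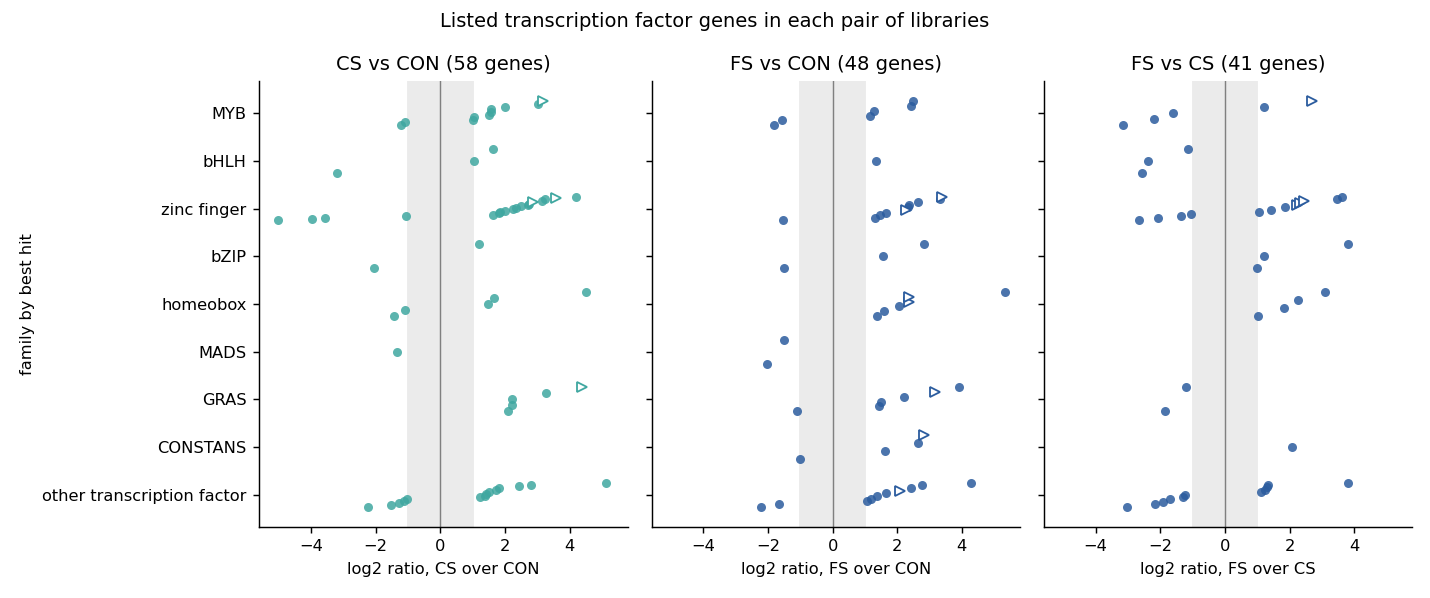
Log2 ratio of each listed member (first library over second) by family, in CS vs CON (58 genes), FS vs CON (48 genes) and FS vs CS (41 genes); the grey band spans ratios under 2-fold, which the lists do not hold, and open triangles are lower bounds for genes at 0 tags. All GRAS points of CS vs CON and all homeobox points of FS vs CON and FS vs CS lie right of the band, and both MADS points of FS vs CON lie left of it.

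Among the bZIP genes, whose family includes the abscisic acid factors, all 3 members listed for FS vs CS were higher in FS. Unigene54650 had 364 tags in FS, 26 in CS and 50 in CON. FS was far above both other libraries, by a log2 ratio of 3.82 over CS (3.24 to 4.45) and 2.82 over CON (2.39 to 3.28). Its tags from site 1 and site 2 start 8 bases apart and share 13 bases, and they changed unequally: site 1 gave 258 tags in FS, 9 in CS and 11 in CON, and site 2 gave 104 in FS, 17 in CS and 39 in CON. Site 1 was the less used site in CS and CON and the more used in FS. Unigene33144, with the best hit bZIP21 of soybean, had 280 tags in FS, 123 in CS and 92 in CON, and Unigene52578 had 123 tags in FS and 62 in CS.

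The bZIP gene with the highest level moved the other way. Unigene28510, with the best hit bZIP69 of soybean, had 311 tags in FS, 214 in CS and 859 in CON. It was lower in both stresses, with a log2 ratio of -1.51 for FS over CON (-1.70 to -1.32) and -2.06 for CS over CON (-2.28 to -1.84). Unigene7995, matched to bZIP88 of soybean, had 138 tags in CS and 58 in CON. Unigene23115, whose best hit RF2a is a bZIP protein in rice although the description does not say so, had 6 tags in FS, 6 in CS and 27 in CON.

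**Figure D4:**
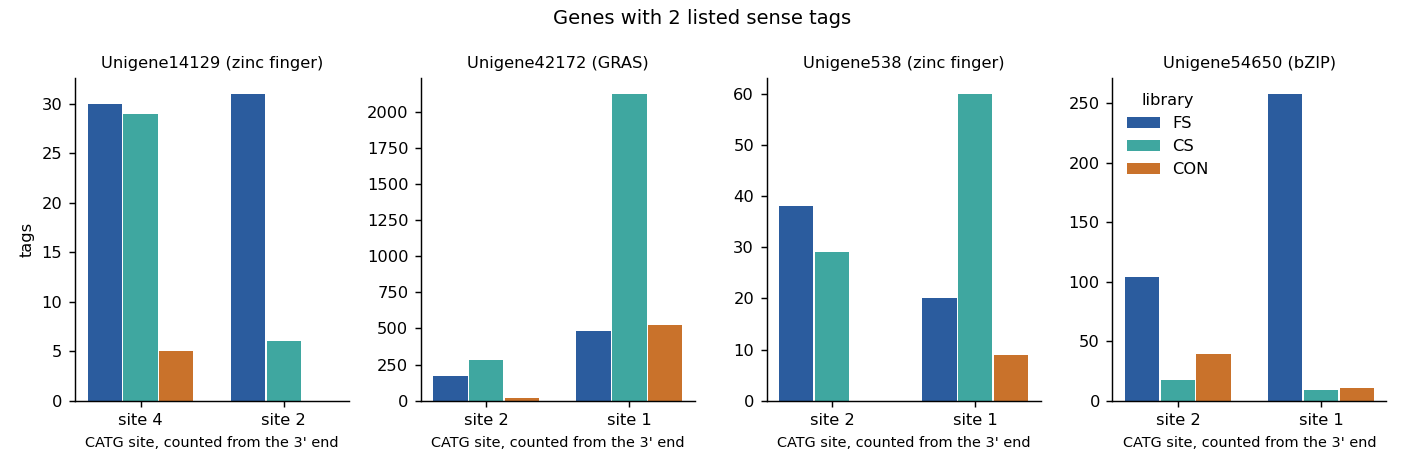
Tags at each CATG site in FS, CS and CON for the 4 members with 2 listed sense tags and counts in all 3 libraries; bars start at 0, sites are numbered from the 3' end, and each panel has its own scale. In Unigene54650 site 1 has 258 tags in FS and 11 in CON where site 2 has 104 and 39, and in Unigene42172 the CS bar stands out at site 1 only.

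CONSTANS-like proteins carry B-box zinc fingers, and CONSTANS itself sets flowering by day length in Arabidopsis. The 4 members were listed for FS vs CON, with 3 higher and 1 lower in FS, and none for CS vs CON. As 4052 of the 7713 genes were listed for FS vs CON and 3872 for CS vs CON, such a split of 4 genes is read no further. Unigene23164 was the most abundant of all members, with 3155 tags in FS and 996 in CON (log2 1.62, 1.52 to 1.73). Unigene43614 had 511 tags in FS, 123 in CS and 80 in CON. FS was the high library there, with a log2 ratio of 2.63 over CON (2.29 to 2.99) and 2.07 over CS (1.78 to 2.36). Unigene28888 had 22 tags in FS and 0 in CON, 7.12-fold higher in FS with 3 tags in CON (lower end log2 2.41). Unigene15644 had 403 tags in FS and 792 in CON (log2 -1.02, -1.19 to -0.84). CONSTANS-like genes of other plants follow the day cycle, and no source used here gives the hour at which leaves were taken.

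The clock genes in the lists, 5 by name, were read beside them, since clock proteins control CONSTANS-like genes in Arabidopsis. Unigene51540, matched to PSEUDO-RESPONSE REGULATOR 5, had 83 tags in FS, 26 in CS and 18 in CON, and Unigene10280 with the same name had 21 tags in FS and 0 in CON. A PSEUDO-RESPONSE REGULATOR 9 match, Unigene425, had 997 tags in FS, 411 in CS and 1320 in CON. The PSEUDO-RESPONSE REGULATOR 7 match Unigene10218 had 6 tags in FS and 27 in CON, and LATE ELONGATED HYPOCOTYL, Unigene32226, had 250 in FS and 93 in CS. All 3 clock genes listed for FS vs CS were higher in FS, and those against CON went in both directions. Their part in the result for CONSTANS-like genes was not tested.

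MADS box genes, known as floral organ and flowering time regulators, were lower under stress in both members. Unigene15814, whose best hit is MADS4 of birch, had 32 tags in FS, 52 in CS and 126 in CON. The level was highest in CON, with a log2 ratio of -2.02 for FS over CON (-2.63 to -1.45) and -1.33 for CS over CON (-1.83 to -0.85). Unigene16870 had 29 tags in FS and 79 in CON (log2 -1.49, -2.15 to -0.86).

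Among genes with MYB in the description, 8 of the 10 members listed for CS vs CON were higher in CS (all listed genes 53.0%). For FS vs CON 4 of 6 were higher in FS (all 56.2%), and for FS vs CS 2 of 5 were higher in FS (all 55.3%). Unigene3063, a myb-like gene, had 16 tags in FS, 143 in CS and 46 in CON. It was the member with opposite directions under the stresses, with log2 ratios of 1.58 for CS over CON (1.09 to 2.09), -1.57 for FS over CON (-2.49 to -0.72) and -3.15 for FS over CS (-3.99 to -2.40). Its tag shown above had 7 tags in FS, 69 in CS and 17 in CON, the same order. That tag is part of the gene's count and thus no separate support, and it was not listed for FS vs CON. The R2R3 gene Unigene31442 was low in FS alone, with 51 tags in FS, 156 in CS and 174 in CON, and its name rests on a best hit with an E-value of 2.21e-06.

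Unigene56240 matched MYB60, which in Arabidopsis acts in guard cells on stomatal opening, and had 55 tags in FS and 10 in CON (log2 2.42, 1.43 to 3.56). The R2R3 gene Unigene58364, listed for FS vs CS alone, had 19 tags in FS and 0 in CS. With 3 tags in CS it was 6.39-fold higher in FS (lower end log2 2.23). Unigene33877, matched to MYB173 of soybean, had 58 tags in CS and 14 in CON (log2 2.00, 1.14 to 2.95), and the most abundant MYB gene, Unigene13828 (MYB11 of apple), had 456 in CS and 212 in CON (log2 1.05, 0.81 to 1.29). These ratios span from just above the 2-fold limit of the lists to past 6-fold, the latter with 3 tags in place of 0.

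The other MYB genes fall outside the naming rule and were picked with their values in view. Unigene24674 had 46 tags in FS, 67 in CS and 8 in CON, and Unigene10428 had 125 in FS, 159 in CS and 54 in CON, so both were lowest in CON. Unigene30336 had 6 tags in FS, 28 in CS and 0 in CON, with CS 8.99-fold above CON at 3 tags in CON (lower end log2 2.77). Unigene5024 was lowest in CS, with 73 tags in FS, 32 in CS and 72 in CON. Among those with 1 pair of counts, Unigene18592 had 149 tags in CS and 48 in CON, Unigene44086 (MYB4 of apple) had 102 in CS and 49 in CON, Unigene35964 had 80 in CS and 163 in CON, and Unigene8437 had 62 in FS and 25 in CON. Of the genes with MYB in the description, Unigene35964 and Unigene5024 were listed as lower in CS than in CON. Families were set by such words, so any MYB-type proteins under other names are not counted here.

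The bHLH proteins bind E-box motifs, and MYC2 of this family is the main jasmonate factor of Arabidopsis. All 3 members listed for FS vs CS were lower in FS. Unigene54405, matched to MYC1a of tobacco, had 11 tags in FS and 58 in CS (log2 -2.39, -3.47 to -1.44). Unigene43764, similar to a MYC factor of grape, had 72 tags in FS, 159 in CS and 74 in CON, so it was high in CS alone. Unigene25129 was the lone bHLH gene lower in CS than in CON, with 4 tags in CS and 35 in CON (log2 -3.18, -5.14 to -1.70).

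Upa20, which in pepper promotes cell enlargement, was the best hit of a pair of bHLH genes. Unigene6456 had 333 tags in FS, 412 in CS and 127 in CON, with log2 ratios of 1.35 for FS over CON (1.05 to 1.66) and 1.64 for CS over CON (1.35 to 1.94). Unigene30697 had 7 tags in FS and 42 in CS (log2 -2.57, -3.97 to -1.41). The tags of this pair differ by the substitution A21G, with the base of Unigene30697 first, counted from 1 at the 5' end of the tag. As the study mapped tags with up to 1 mismatch, the counts of the pair may be split between copies and are uncertain.

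Zinc finger genes were the most numerous family, with 14 of 18 members listed for CS vs CON higher in CS, 9 of 10 listed for FS vs CON higher in FS, and 8 of 12 listed for FS vs CS higher in FS. Of the 24, 10 carried no more than the name zinc finger protein. Unigene69708, matched to ZFP248 of peanut, had 84 tags in FS, 147 in CS and 16 in CON. It was lowest in CON, with log2 ratios of 2.35 for FS over CON (1.57 to 3.22) and 3.15 for CS over CON (2.40 to 3.99). The C2H2-like gene Unigene45093 had 32 tags in FS, 37 in CS and 0 in CON. With 3 tags in CON it was 10.4-fold higher in FS (lower end log2 2.99) and 11.9-fold higher in CS (lower end log2 3.20). Unigene12199 was high in CS alone, with 15 tags in FS, 64 in CS and 11 in CON, and the most abundant zinc finger gene, Unigene37786, was low in CS alone with 294 tags in FS, 144 in CS and 292 in CON.

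C3H-like zinc finger proteins, many of which bind RNA in other plants, did not move together. Unigene34809 had 22 tags in FS, 2 in CS and 62 in CON. CS was the low library, with a log2 ratio of -5.01 for CS over CON (-8.09 to -3.09) and 3.47 for FS over CS (1.45 to 6.60), and FS also lay below CON at -1.54 (-2.31 to -0.81). Unigene1868 and Unigene2701 had the same best hit as Unigene34809. Unigene1868 had 2 tags in CS and 23 in CON. Unigene2701 had 16 tags in FS and 0 in CS, 5.38-fold higher in FS with 3 tags in CS (lower end log2 1.96). No sense tag that matched Unigene2701 alone without a mismatch was listed. Its antisense tag shown above, not part of the count, had 85 tags in FS, 40 in CS and 89 in CON. In each of the 3 genes with this best hit, CS was the lowest library counted. The C3H-like gene Unigene14129 had another best hit and was lowest in CON, with 93 tags in FS, 63 in CS and 9 in CON.

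GATA factors act in light and nitrogen responses in Arabidopsis. Unigene538 had 58 tags in FS, 89 in CS and 9 in CON (log2 2.65 for FS over CON and 3.25 for CS over CON), Unigene30392 had 97 tags in FS, 253 in CS and 67 in CON, and Unigene10759 had 14 in FS and 0 in CS. At Unigene538, site 1 gave 20 tags in FS, 60 in CS and 9 in CON, whereas site 2 gave 38 in FS, 29 in CS and 0 in CON. CS was the highest library at site 1 and FS at site 2.

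The remaining zinc finger genes were likewise picked with their values in view. Those of the C2H2-like class, which in Arabidopsis includes the cold-induced ZAT proteins, were Unigene696 with 6 tags in FS, 38 in CS and 2 in CON, Unigene32637 with 64 in FS, 24 in CS and 20 in CON, and Unigene19913 with 47 in CS and 9 in CON. CON was the lowest library counted in each, but Unigene696 was not listed for FS vs CON and Unigene32637 was not listed for CS vs CON. Unigene62949 was low in CS alone, with 49 tags in FS, 4 in CS and 60 in CON (log2 -3.96 for CS over CON, -5.88 to -2.53). Unigene44165, with the FAR1 name of a phytochrome A pathway protein, was high in FS alone with 162 tags in FS, 45 in CS and 64 in CON. Unigene35108 (114 tags in FS, 109 in CS and 22 in CON) and Unigene109828 (72 in FS, 80 in CS and 25 in CON) were lowest in CON, and the ZFWD1 match Unigene21987 had tags in FS only, 15 against 0 in CS and 0 in CON. Unigene16137, Unigene24559, Unigene40739 and Unigene45758, each with counts in CS vs CON only, had 23 to 46 tags in CS against 0 to 11 in CON. Unigene22281 had 68 tags in FS and 141 in CS.

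Of the 23 genes with another or no family word, 9 of 14 listed for CS vs CON were higher in CS, 8 of 10 listed for FS vs CON were higher in FS, and 5 of 11 listed for FS vs CS were higher in FS. The largest ratio of any member in CS vs CON was that of Unigene37694, matched to a heat shock factor (HSP transcription factor) of grape and named after its values were seen. It had 40 tags in FS, 73 in CS and 2 in CON, with log2 ratios of 4.28 for FS over CON (2.33 to 7.37) and 5.14 for CS over CON (3.23 to 8.21). With 2 tags in CON the ratios are loosely bounded, yet the counts of the stressed libraries lie far above it. Unigene17716 was the most abundant of the group, with 1364 tags in CS and 507 in CON (log2 1.37, 1.23 to 1.52).

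The same Ricinus communis protein was the best hit of Unigene114865, Unigene24185 and Unigene45566, and their patterns differed. Unigene114865 had 120 tags in FS, 124 in CS and 22 in CON, high under both stresses. Unigene24185 had 31 tags in FS, 139 in CS and 19 in CON, with log2 ratios of 2.82 for CS over CON (2.12 to 3.59) and -2.15 for FS over CS (-2.76 to -1.58). Unigene45566 had 11 tags in FS, 91 in CS and 31 in CON, with a log2 ratio of -3.04 for FS over CS (-4.09 to -2.13) and an interval of 0.90 to 2.14 for CS over CON. CS was the highest library of all 3 genes, narrowly for the first. Unigene12503 and Unigene1658 also shared a best hit, and had 151 tags in CS and 54 in CON, and 24 tags in FS, 79 in CS and 23 in CON.

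The next genes, with a family word outside the main families or none, were gathered with their values in view. PHANTASTICA sets the upper and lower side of the leaf in snapdragon, and its match Unigene2526 had 206 tags in CS and 434 in CON. GOLDEN2-like proteins drive chloroplast development in maize, and Unigene26226, matched to ZmGLK1 with an E-value of 3.00e-07, had 421 tags in FS, 181 in CS and 358 in CON. TCP proteins control cell division in growing leaves, and Unigene3193 had 92 tags in FS, 38 in CS and 89 in CON, while Unigene9962 had 139 in FS and 64 in CS. The abundant Unigene11928, with no family word, had 1052 tags in FS, 423 in CS and 1167 in CON (log2 -1.52 for CS over CON, -1.68 to -1.36). In Unigene3193, Unigene26226 and Unigene11928, FS was near CON.

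Unigene770, named only as related to transcription factors, was low in FS alone, with 44 tags in FS, 104 in CS and 136 in CON (log2 -1.67 for FS over CON, -2.19 to -1.17). Unigene35518, with the name of the ARF class, was high in FS alone, with 28 tags in FS, 2 in CS and 4 in CON. Unigene24506 had 421 tags in FS, 581 in CS and 159 in CON. Both Unigene45668, with 107 tags in FS and 265 in CS, and the site-2 protease Unigene51746, with 9 in FS and 34 in CS, were lower in FS. Unigene153, Unigene23222, Unigene44301 and Unigene29452, with counts in FS vs CON only, had 13 to 384 tags in FS against 0 to 177 in CON, each higher in FS, and Unigene32530 had 95 tags in CS and 39 in CON.

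Only listed tags that matched a member alone and without a mismatch were read, while gene counts may also hold tags with 1 mismatch. Those read numbered 121, with 83 in the sense and 38 in the antisense direction, over 81 of the 94 members. No such sense tag was listed for 12 of 58 members in CS vs CON, 11 of 48 in FS vs CON and 11 of 41 in FS vs CS. Unigene37694, Unigene45093 and Unigene24185 were among these, as was Unigene34809 in both pairs with CON. No sense tag read here backs those counts, and listed tags with a mismatch were not looked at. In 28 of 58 members in CS vs CON, 22 of 48 in FS vs CON and 17 of 41 in FS vs CS, 1 listed tag held at least 90% of the gene's count. Members with several listed sense tags in a pair (2 in CS vs CON, 2 in FS vs CON and 1 in FS vs CS) had them in 1 direction. An antisense tag reads the other strand of the reference sequence, is not part of the gene's count, and was listed for 16 members in CS vs CON (27.6%), 10 in FS vs CON (20.8%) and 8 in FS vs CS (19.5%). Among all listed genes the shares were 21.3%, 13.6% and 14.4%.

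The antisense tags moved with the sense count in all 16 members of CS vs CON and all 10 of FS vs CON, and in 6 of 8 of FS vs CS. Read the same way, 98.3%, 82.4% and 80.9% of all listed genes with antisense tags did so. At the GRAS gene Unigene48446 the antisense tag at site 8 had 1525 tags in FS, 1578 in CS and 79 in CON, far above its sense tag with 17 in FS, 43 in CS and 0 in CON. At the homeodomain gene Unigene47625 the antisense tag had 894 tags in FS, 862 in CS and 28 in CON, against 162, 95 and 4 for the sense tag in the same libraries. Both strands of these genes were low in CON. Which strand is the transcribed one rests on the orientation of the assembled reference and was not tested.

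Opposite directions appeared in FS vs CS at Unigene30392, whose sense tag had 95 tags in FS and 250 in CS and whose antisense tag had 43 in FS and 12 in CS. They also appeared at Unigene9962, with 67 tags in FS and 16 in CS for the sense tag and 163 in FS and 346 in CS for the antisense tag at site 2. Unigene28510 had a second contrast between strands. Its sense tag was at 311 in FS, 214 in CS and 859 in CON, while the antisense tag was at 219 in FS, 38 in CS and 141 in CON, so the sense tag was highest in CON and the antisense tag in FS.

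**Figure D5:**
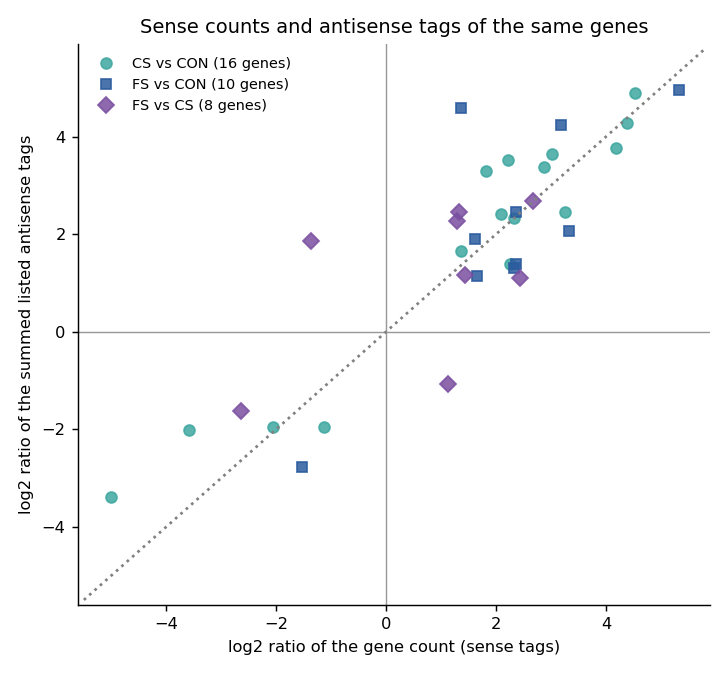
Log2 ratio of the gene count (horizontal) and of the summed listed antisense tags (vertical) for members with antisense tags, in CS vs CON (16 genes, circles), FS vs CON (10 genes, squares) and FS vs CS (8 genes, diamonds); the dotted line marks equal ratios, and a library at 0 tags was set to 3 tags. Points lie on the same side of 0 on both axes except for 2 diamonds of FS vs CS, Unigene30392 and Unigene9962.

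Genes of kinds that can act with these factors in other plants were read by name from the same lists. Whether those listed here do so was not tested. Of the 12 flavonoid enzyme genes, which MYB, bHLH and WD40 proteins control, 2 were higher and 5 lower in CS than in CON (median log2 -1.70), 1 was higher and 3 lower in FS than in CON (-1.66), and 6 were higher and 4 lower in FS than in CS (1.61). Among all listed genes 53.0% were higher in CS than in CON and 56.2% higher in FS than in CON, and the difference of these few enzyme genes from the factors was not tested. Chalcone synthase, the first enzyme of the pathway, had 239 tags in FS, 57 in CS and 943 in CON at Unigene27862 and 193 in FS, 147 in CS and 459 in CON at Unigene17948. A flavonol synthase match, Unigene75620, had 352 tags in FS, 13 in CS and 400 in CON, and was low in CS alone. Genes with a WD40 name numbered 5, including the member Unigene21987, and each was higher in the first library of every pair in which it was listed. Their names include F-box, protein kinase and zinc finger proteins, and a part in flavonoid control was not tested. Unigene21987 and Unigene27886 had 15 tags in FS against 0 in CON, and Unigene61713 had 14 in FS against 0 in CS. A single CBF/DREB gene was listed, Unigene7100, with 72 tags in FS, 101 in CS and 0 in CON.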

How the data were processed

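Leaf RNA was profiled by DeepSAGE in 3 libraries, FS, CS and CON. The authors removed adaptors, poor reads and tags with fewer than 2 copies, mapped tags with up to 1 mismatch to a reference transcriptome (Bowtie 0.12.3 per the submitters' processing notes), and dropped tags that matched several genes. The deposited counts are such tags, per gene or for each tag sequence. The TPM values deposited by the authors are counts per 1000000 clean tags, with 0 tags written as 0.01. Columns with the authors' log2 ratio, P-value and FDR, after the test of Audic and Claverie, were not used, but they decided which genes are listed, so transcription factors that were not called were not analysed here.

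The clean tags of each library were recovered from counts and TPM (11908617 in FS, 12010129 in CS and 11566376 in CON), and TPM recomputed from them lay within 0.0053 of the deposited values. Log2 ratios of count over clean tags were given exact 95% intervals from the binomial share of the 2 counts, which were tested on simulated data, with 3 tags in place of 0 (0.252 TPM in FS, 0.25 in CS and 0.259 in CON). Families came from description words. The word MYC was added to the bHLH words after descriptions were seen.

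Members were named by rule: per comparison the 3 largest rises and 3 largest falls with 10 or more tags in the lower library, members in all 3 lists, the largest change and the most abundant member of each family, and the 2 highest members at 0 tags in the other library. Genes outside this rule were picked with their values in view. The members and lists were chosen with earlier results of these data known. Alternatives were scaling by edgeR TMM factors over the listed genes, filters on counts, ratios and E-values, whole-word matching, keeping the integrase genes, merging shared best hits, and 0.01 TPM in place of 3 tags. Computation was in R 4.3.3 with edgeR 4.0.16 and in Python 3.11.15 with pandas 2.3.3, numpy 2.4.6, matplotlib 3.10.9 and scipy 1.17.1.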

Additional observations from a re-analysis of the deposited data

Results flagged for a closer look

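Unigene3063, the myb-like gene with 16 tags in FS, 143 in CS and 46 in CON, was the member listed against CON under both stresses with opposite directions, higher in CS and lower in FS, and its log2 ratio was -3.15 for FS over CS. With 1 library per condition the difference between the stresses was not tested.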

How the results depend on the processing

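With log2 ratios of at least 2 in size, 28 members remained listed in CS vs CON, 24 in FS vs CON and 19 in FS vs CS, with medians of 2.60, 2.45 and 2.23 in the same order, and the share of them higher in the first library was 78.6% (all listed genes 64.4%), 91.7% (75.1%) and 57.9% (64.4%). Where the higher count had to reach 30 tags, 50.0% of the 34 members left in FS vs CS were higher in FS (all listed genes 54.0%). Their median of -0.02 thus fell between the smallest rise and the smallest fall and gives no direction. The TMM factors shifted all log2 ratios by -0.12 in CS vs CON, -0.11 in FS vs CON and -0.13 in FS vs CS, which cannot turn a direction as listed genes differ by at least 2-fold, and left 3, 1 and 4 members under 2-fold. Under the other alternatives, no count moved by more than 1.5 times and no share or median of the members changed direction. The background did move with E-values of at most 1e-20, where 63.1% of all listed genes were higher in FS than in CON, against 56.2% without that limit. For named members at 0 tags, the log2 ratio lay between 2.43 and 4.38 with 3 tags and between 7.07 and 9.08 with 0.01 TPM. Both ranges rest on the value set in place of 0. Leaving out a replicate was not possible with 1 library per condition. No paired analysis was possible because the result comes from no test. Depth limits genes with few tags: at 73 tags in CS and 2 in CON, the interval of Unigene37694 ran from 3.23 to 8.21 on the log2 scale.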
